A study of Mus musculus with 10 samples.

Results

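Marrow adipocytes are fat cells that lie among the blood-forming and bone-forming cells inside bone. They arise from marrow stromal cells under the transcription factors PPARγ and C/EBPα, store triglyceride in a large lipid droplet coated with perilipin, and secrete the hormones adiponectin and leptin. Marrow fat is known to expand with age in mice and humans, so genes of these cells were followed here in bone of young and aged mice. The 10 genes taken were Adipoq, Lep, Cfd and Retn (secreted proteins), Plin1, Cidec, Fabp4 and Lipe (lipid storage and breakdown), and Pparg and Cebpa (transcription factors). They were chosen by gene name from the count table, which lists 38962 genes, and all 10 were in it.

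RNA was sequenced from the femurs of 5 young male C57BL/6J mice aged 2 months and 5 aged male C57BL/6J mice aged 22 months, with 1 library per mouse and no genetic change or drug named for either group. Young animals were bought from the Jackson Laboratory, whereas aged animals were drawn from the colony of the National Institute of Aging and kept on in house, so age and supplier cannot be told apart. Each femur was flushed of its marrow and the cortex was pulverized, so the libraries hold RNA of whole bone and of whatever fat, vessel, muscle and marrow stayed with it. In such bulk RNA, fewer cells of a type and less RNA per cell cannot be told apart.

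The libraries held 33447009 to 40395050 counts in young mice and 31788232 to 45075335 in aged mice. Gm26917, an abundant noncoding RNA, took 14.5 to 24.0% of the counts in young and 16.1 to 31.0% in aged mice. Levels are CPM, a gene's counts brought to the same total in every library, after that total was scaled by the trimmed mean of M values (TMM). Of the 38962 genes, 22088 passed a filter on low counts and were tested for a difference between aged and young mice with edgeR's quasi-likelihood test, and a gene was called at a Benjamini-Hochberg adjusted p of at most 0.05 over all tested genes. The median log2 fold change of all tested genes was 0.01.

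Among the 10 adipocyte genes, Lipe, the hormone-sensitive lipase that cuts diglyceride during fat breakdown, was higher in aged femurs by 1.42-fold. It was the only member called, and none was called lower. The filter on low counts was passed by 9 of the genes and not by Lep. The count of 1 higher among 9 tested members stood against 3.68% called higher and 3.61% called lower over all tested genes. All 9 tested members had a log2 fold change above 0, with a median of 0.40, whereas 50.9% of all tested genes lay above 0. However, Adipoq lay below 0 in 8 of 22 alternative fits, Retn in 5 and Cebpa in 1, all 3 of them with total counts as the only scaling. A median above 0 was not particular to the members. Marker lists of other cells had medians of 0.48 (skeletal muscle), 0.29 (neutrophil), 0.14 (macrophage), -0.01 (endothelial), -0.34 (stromal), -0.41 (fibroblast) and -1.20 (osteoblast). Most secreted and storage genes also moved together from mouse to mouse, so the 9 signs are not independent. DESeq2 and limma-voom also called 1 member higher and 0 lower, and by edgeR Lipe was the only member at an unadjusted p under 0.05. No member had groups that did not overlap, against 7.8% of all tested genes. The 95% intervals of the other 8 members all held 0, from the narrowest at Cebpa to the widest at Retn.

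**Figure D1:**
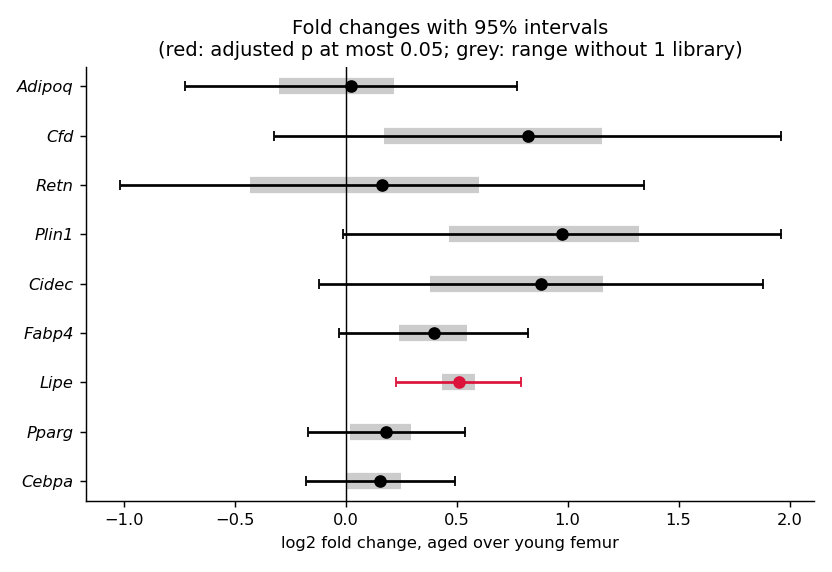
Log2 fold change of aged over young femurs (x axis) for the 9 tested genes (y axis), where points are edgeR estimates, bars are 95% intervals and grey bands are the range when 1 library was left out. Only the interval of Lipe (0.23 to 0.79, red) lies above 0, while that of Retn runs from -1.02 to 1.34.

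The DNA just upstream of the genes is shown for the members on which the values turned. Lipe was the member called, Adipoq encodes a hormone of fat cells, and Lep had the lowest level. The Plin1 and Pparg windows held the most matches to a C/EBP-type motif. Sequences are the 250 bases before a RefSeq start in GRCm38.p6, read 5′ to 3′ on the gene's strand, and capitals mark matches to TTGCNNAA on either strand, a motif of the kind that C/EBP proteins bind.
Adipoq: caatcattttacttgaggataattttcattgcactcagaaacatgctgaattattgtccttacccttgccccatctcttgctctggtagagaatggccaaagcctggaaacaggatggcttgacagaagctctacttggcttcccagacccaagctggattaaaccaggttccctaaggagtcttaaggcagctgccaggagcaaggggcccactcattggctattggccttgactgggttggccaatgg
Lep: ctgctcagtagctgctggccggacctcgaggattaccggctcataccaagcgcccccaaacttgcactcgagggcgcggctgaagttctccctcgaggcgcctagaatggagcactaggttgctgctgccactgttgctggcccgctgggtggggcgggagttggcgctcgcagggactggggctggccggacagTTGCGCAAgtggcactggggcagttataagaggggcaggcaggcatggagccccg
Plin1: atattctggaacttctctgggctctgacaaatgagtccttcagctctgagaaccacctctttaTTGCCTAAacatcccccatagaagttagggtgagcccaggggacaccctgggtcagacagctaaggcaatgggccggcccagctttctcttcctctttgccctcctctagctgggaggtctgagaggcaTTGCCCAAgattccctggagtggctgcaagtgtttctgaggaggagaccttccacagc
Lipe, upstream start: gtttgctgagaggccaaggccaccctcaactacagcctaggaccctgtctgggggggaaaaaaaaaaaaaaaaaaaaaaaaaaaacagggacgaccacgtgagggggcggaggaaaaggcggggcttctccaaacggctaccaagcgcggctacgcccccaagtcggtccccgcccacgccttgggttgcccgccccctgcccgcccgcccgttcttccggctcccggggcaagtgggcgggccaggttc
Lipe, downstream start: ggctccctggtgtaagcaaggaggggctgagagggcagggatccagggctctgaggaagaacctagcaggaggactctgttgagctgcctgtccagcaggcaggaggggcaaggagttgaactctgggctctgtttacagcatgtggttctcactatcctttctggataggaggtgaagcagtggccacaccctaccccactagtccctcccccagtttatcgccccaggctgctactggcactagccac
Pparg, downstream start: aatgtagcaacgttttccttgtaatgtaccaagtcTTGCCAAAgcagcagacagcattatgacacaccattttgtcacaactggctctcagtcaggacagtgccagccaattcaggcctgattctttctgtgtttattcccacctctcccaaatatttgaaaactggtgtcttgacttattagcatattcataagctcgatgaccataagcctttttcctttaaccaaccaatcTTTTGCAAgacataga
The Adipoq window lies at chr16:23146286-23146535 on the plus strand and the Lep window at chr6:29059971-29060220 on the plus strand. The Plin1 window is chr7:79732777-79733026 on the minus strand. The Lipe windows are chr7:25395988-25396237 and chr7:25390113-25390362 on the minus strand, both inside the annotated gene, and the Pparg window is chr6:115421816-115422065 on the plus strand. In Plin1 the matches began 187 and 58 bases before the start, in Lep 55 bases before it, and in Pparg 215 and 16 bases before it. The Adipoq window and both Lipe windows held no match. RefSeq gave 13 windows for 9 of the 10 genes, and 4 of the 13 held TTGCNNAA (in Lep, Plin1, Pparg and Cidec), against 9.56% of 32851 windows of the same length over the genome. AGGTCA, the core site of nuclear receptors such as PPARγ, was in 2 of the 13 on either strand, both of them other Pparg starts, against 14.0% of all windows. That core site repeated with 1 base between the copies was in none of the 13 and in 0.0335% of all windows. TATAAA, read on the gene's strand alone, was in the Cebpa window, 1 of the 13, against 7.59% of all windows. A match is a run of letters and not a measured binding site.

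The secreted proteins are taken first. Adipoq (ENSMUSG00000022878.5, GRCm38 chr16:23146536-23158028, plus strand) encodes adiponectin, a hormone of fat cells that raises insulin sensitivity. Which cells of the bone made its transcript was not tested. Its level was 6.00, 8.03, 5.89, 6.85 and 8.09 CPM in young mice 1 to 5 and 12.9, 9.75, 2.81, 5.62 and 4.28 CPM in aged mice 1 to 5. The aged mice lay on both sides of the young ones, with 2 above every young mouse and 3 below every young mouse. The means were 6.97 ± 1.06 CPM in young and 7.06 ± 4.15 CPM in aged femurs (SD, n = 5 each), and the coefficient of variation was 15.2% in young and 58.7% in aged mice. The log2 fold change was 0.02 (SE 0.34, 95% interval -0.72 to 0.77, adjusted p = 0.974 by edgeR), and its sign turned in 8 of 22 alternative fits, among them limma-voom (-0.14) and the fit without aged mouse 1 (-0.30).

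Lep (ENSMUSG00000059201.12, GRCm38 chr6:29060220-29073877, plus strand) encodes leptin, the hormone by which fat tissue signals energy stores to the brain. It was counted 6, 39, 3, 6 and 4 times in young mice 1 to 5 and 34, 32, 5, 12 and 7 times in aged mice 1 to 5. These counts were 0.154, 0.982, 0.104, 0.125 and 0.0943 CPM in the young mice and 0.951, 0.637, 0.190, 0.281 and 0.177 CPM in the aged mice. Young mouse 2 was the highest of all libraries, and the other 4 young mice lay below every aged mouse. Because of its low counts Lep was not tested in the main comparison. Without the filter its log2 fold change was 0.62 (SE 0.76, adjusted p = 0.684 by edgeR).

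Cfd (ENSMUSG00000061780.6, GRCm38 chr10:79890853-79892655, plus strand) encodes adipsin, also named complement factor D, a protease that fat cells release and that starts the alternative complement pathway. Its level was 9.95, 26.6, 15.01, 8.50 and 12.7 CPM in young mice 1 to 5 and 63.0, 28.7, 9.30, 12.3 and 15.01 CPM in aged mice 1 to 5. Aged mice 1 and 2 lay above every young mouse, and the other 3 aged mice lay within the young range. Between the groups the log2 fold change was 0.82 (SE 0.52, 95% interval -0.32 to 1.96, adjusted p = 0.347 by edgeR), and it was 0.17 without aged mouse 1. The medians of the groups were closer than the means, at 12.7 and 15.01 CPM.

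Retn (ENSMUSG00000012705.16, GRCm38 chr8:3655770-3660110, plus strand) encodes resistin, a hormone of mouse fat cells that opposes insulin. Its level was 0.641, 3.32, 1.32, 0.877 and 1.98 CPM in young mice 1 to 5 and 4.33, 1.95, 0.873, 0.820 and 1.11 CPM in aged mice 1 to 5. Aged mouse 1 was the only aged library above all young ones, and 2 of the 5 aged mice were above the young median. Aged differed from young femurs by a log2 fold change of 0.16 (SE 0.54, 95% interval -1.02 to 1.34, adjusted p = 0.878 by edgeR), and the value was -0.43 without aged mouse 1.

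Lipe was the lipid storage gene with a called difference. It lies at GRCm38 chr7:25379527-25398710 on the minus strand (ENSMUSG00000003123.15) and acts after adipose triglyceride lipase, the product of Pnpla2. Besides fat cells, muscle and steroid-making cells express it. The level was 17.9, 18.6, 13.2, 15.9 and 19.7 CPM in young mice 1 to 5 and 28.4, 22.3, 26.0, 25.2 and 19.5 CPM in aged mice 1 to 5. Aged mice 1 to 4 lay above every young mouse, and aged mouse 5 lay just below young mouse 5, so the groups overlapped by that pair of libraries. The means were 17.0 ± 2.57 CPM in young and 24.3 ± 3.46 CPM in aged femurs (SD, n = 5 each). For Lipe the log2 fold change was 0.51 (SE 0.13, 95% interval 0.23 to 0.79, adjusted p = 0.0330 by edgeR). It stayed above 0 in all 22 alternative fits, and was called in 14 of them and not in 8. Among the 8 was the fit with total counts as the only scaling (0.32, adjusted p = 0.281 by edgeR), where the median of all genes was -0.16, so that Lipe stood 0.49 above it. It was also lost, at adjusted p between 0.0553 and 0.0867 by edgeR, without young mouse 1, 2, 3 or 4 or without aged mouse 1 or 3.

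Plin1 (ENSMUSG00000030546.14, GRCm38 chr7:79720218-79732903, minus strand) encodes perilipin 1, which coats the droplet of fat cells and holds lipases off it. Its level was 3.26, 10.6, 4.33, 4.09 and 6.37 CPM in young mice 1 to 5 and 24.9, 12.0, 4.67, 7.87 and 6.93 CPM in aged mice 1 to 5. Every aged mouse was above the young median, but only aged mice 1 and 2 were above young mouse 2. Its log2 fold change was 0.98 (SE 0.45, 95% interval -0.01 to 1.96, adjusted p = 0.199 by edgeR), the highest of the members tested. Without aged mouse 1 it was 0.46 and without young mouse 2 it was 1.32, and Plin1 was not called in any of the 22 alternative fits.

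Cidec (ENSMUSG00000030278.11, GRCm38 chr6:113424634-113435760, minus strand) encodes a droplet protein that fuses small droplets into the single large one of white fat cells. Its level was 1.67, 3.63, 1.63, 1.38 and 2.33 CPM in young mice 1 to 5 and 8.58, 4.78, 1.48, 1.99 and 2.68 CPM in aged mice 1 to 5. Aged mice 1 and 2 were again above every young mouse, and aged mouse 3 was below 4 of the 5 young mice. The log2 fold change was 0.88 (SE 0.46, 95% interval -0.12 to 1.88, adjusted p = 0.251 by edgeR), and it was 0.38 without aged mouse 1.

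Fabp4 (ENSMUSG00000062515.3, GRCm38 chr3:10204088-10208576, minus strand) encodes the fatty acid carrier of fat cells, which capillary endothelium and macrophages also make. Its level was 33.6, 52.0, 37.1, 30.1 and 33.3 CPM in young mice 1 to 5 and 69.1, 56.8, 41.0, 33.1 and 44.7 CPM in aged mice 1 to 5. Aged mice 1 and 2 were above all young mice and aged mouse 4 was among the low young ones. The means were 37.2 ± 8.60 and 48.9 ± 14.1 CPM (SD, n = 5 each), and the log2 fold change was 0.40 (SE 0.20, 95% interval -0.03 to 0.82, adjusted p = 0.226 by edgeR).

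Pparg (ENSMUSG00000000440.12, GRCm38 chr6:115360951-115490399, plus strand) encodes PPARγ, the nuclear receptor without which fat cells do not form and which osteoclasts and macrophages also use. Its level was 11.4, 10.1, 10.2, 11.2 and 13.3 CPM in young mice 1 to 5 and 12.9, 12.5, 11.5, 18.1 and 8.73 CPM in aged mice 1 to 5. Aged mouse 4 was above and aged mouse 5 below every young mouse, and the other 3 aged mice were inside the young range. Aged over young, the log2 fold change was 0.18 (SE 0.17, 95% interval -0.17 to 0.54, adjusted p = 0.513 by edgeR).

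Cebpa (ENSMUSG00000034957.10, GRCm38 chr7:35119293-35121928, plus strand) encodes C/EBPα, which acts with PPARγ in fat cells and is also required for granulocyte formation. Its level was 34.7, 41.0, 39.4, 37.1 and 50.6 CPM in young mice 1 to 5 and 37.7, 47.1, 43.3, 63.4 and 34.5 CPM in aged mice 1 to 5. Here too aged mouse 4 was the highest and aged mouse 5 the lowest of all libraries. The log2 fold change was 0.16 (SE 0.16, 95% interval -0.18 to 0.49, adjusted p = 0.558 by edgeR). Antisense genes overlap Pparg (Gm44079, 21 to 63 counts per library), Cebpa (Gm45091, 9 to 30 counts) and Lipe (4732471J01Rik, 86 to 173 counts). The strand setting of the counting step is not given, so reads of a gene and its antisense partner may be mixed.

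**Figure D2:**
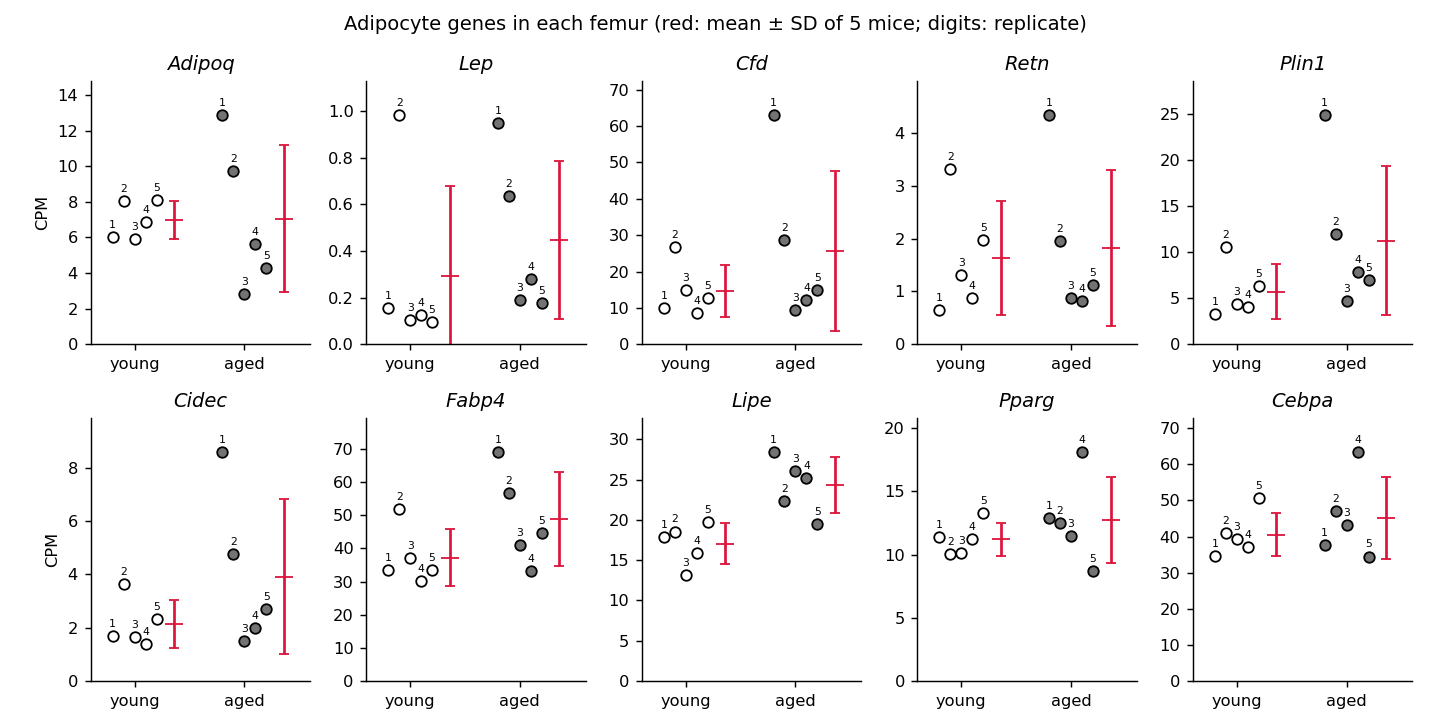
Level of each of the 10 genes in CPM (y axis of each panel, starting at 0) in the 5 young (open) and 5 aged (filled) femurs, with digits naming the mouse and red bars the mean ± SD (the Lep bar is cut at 0). Aged mouse 1 is the highest library for 7 genes, aged mouse 4 for Pparg and Cebpa, and young mouse 2 for Lep.

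Read against the deposited gene length, so that genes can be compared, mean levels over the 10 libraries spanned from 21.8 CPM per kb for Cfd to 0.110 CPM per kb for Lep. Cebpa was at 16.3, Fabp4 at 9.60, Adipoq at 5.08, Pparg at 4.06, Lipe at 3.51, Plin1 at 1.83, Cidec at 1.62 and Retn at 1.09 CPM per kb. Neighbours in this order overlapped in their ranges over the libraries, except Retn (0.406 to 2.74 CPM per kb) and Lep (0.0281 to 0.293 CPM per kb). This order depends on the annotation, since the deposited length of Fabp4 (4489 bases) takes in a transcript with retained introns and equals its whole gene span. With the exons of protein-coding transcripts alone (896 bases, an alternative added after seeing the data) Fabp4 was at 48.1 CPM per kb (33.6 to 77.1 over the libraries) and came before Cfd, whose range it overlapped. Pparg was then at 4.68 and Lipe at 3.60 CPM per kb, the other 7 genes kept their values, and the ranges of Cebpa and Adipoq, then neighbours, did not overlap. On the deposited lengths Cfd stood at percentile 94.7 of all tested genes and Adipoq at percentile 68.5, whereas Retn stood at percentile 31.5. The summed level of the 10 genes was 137 ± 24.4 CPM in young and 181 ± 51.3 CPM in aged femurs (SD, n = 5 each), or 0.0147% and 0.0173% of all counts.

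**Figure D3:**
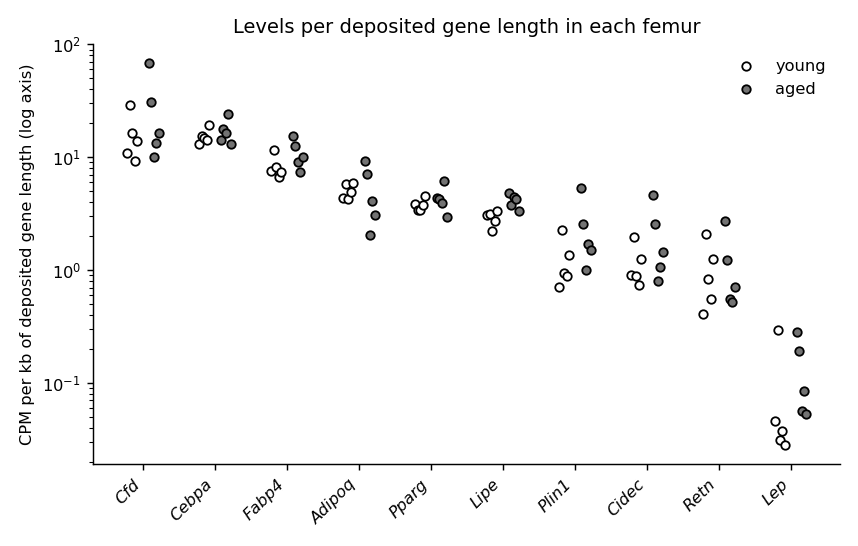
CPM per kb of deposited gene length (y axis, log scale) of each gene (x axis, ordered by mean) in each young (open) and aged (filled) femur, where the length of Fabp4 takes in retained introns and lowers its points. Lep, with a mean of 0.110, lies apart below the other 9 genes, and the aged points of Cfd, Plin1 and Cidec spread more widely than the young ones.

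The spread between mice was larger in aged than in young femurs for 8 of the 10 genes by coefficient of variation, Lep and Lipe being the exceptions. Aged mouse 1 was the highest aged library for 8 genes and young mouse 2 the highest young library for 6. For Cfd the highest aged mouse was 6.77 times the lowest, against 3.13 times among young mice. For Lipe these ratios were 1.46 and 1.495.

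**Figure D4:**
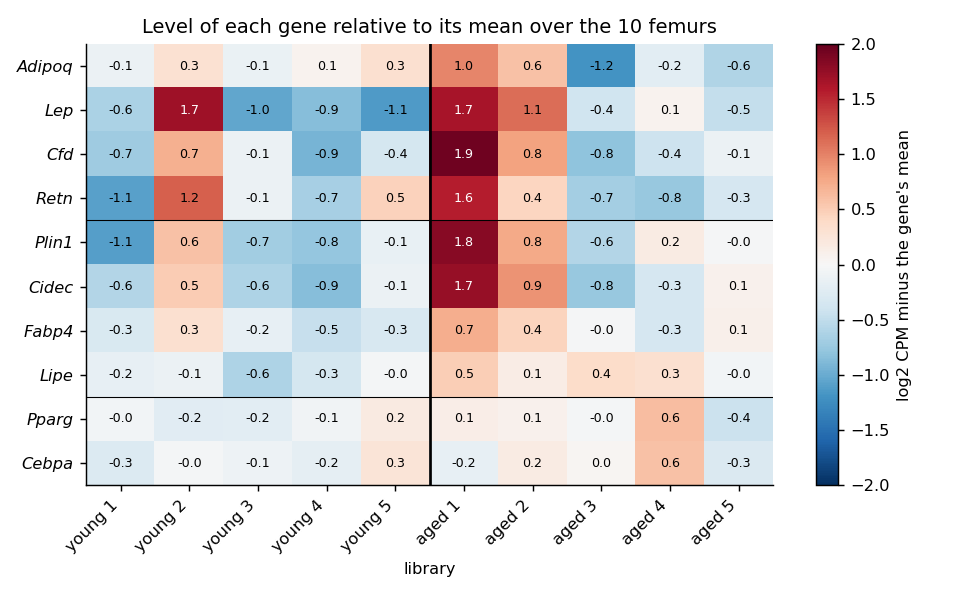
Log2 CPM of each gene (rows) in each library (columns) minus the gene's mean over the 10 femurs, with red above and blue below the mean. Aged 1 is above the mean for 9 of the 10 genes and young 2 is high for Lep, Retn, Cfd and Plin1, while Pparg and Cebpa are highest in aged 4.

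Levels of most secreted and storage genes went together from mouse to mouse. Over the 45 pairs of members, Pearson's r of log2 CPM across the 10 libraries passed an adjusted permutation p of 0.05 in 19 pairs, and Spearman's rho did so in 2. Cidec and Cfd had r = 0.968 (rho = 0.879, adjusted permutation p = 0.00225 and 0.0360), and r was 0.884 without aged mice 1 and 2. Plin1 and Cidec had r = 0.956 (rho = 0.879, adjusted permutation p = 0.00180 and 0.0360), and r was 0.944 without young mouse 1 and aged mouse 1. After each group's mean was taken off, these pairs had r = 0.968 and 0.951, so they moved together within the groups. Of the 9 pairs of Lipe none passed, with r between 0.07 and 0.62. The 8 pairs of a storage gene with a transcription factor and the 8 pairs of a secreted gene with one did not pass either. Pparg and Cebpa had r = 0.831 with each other (rho = 0.709, adjusted permutation p = 0.0140 and 0.122), which was 0.449 without aged mice 4 and 5. Lep and Retn had r = 0.728 (rho = 0.321, adjusted permutation p = 0.0475 and 0.589), and without young mouse 2 and aged mouse 1 it was 0.199, so that relation rested on those libraries.

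**Figure D5:**
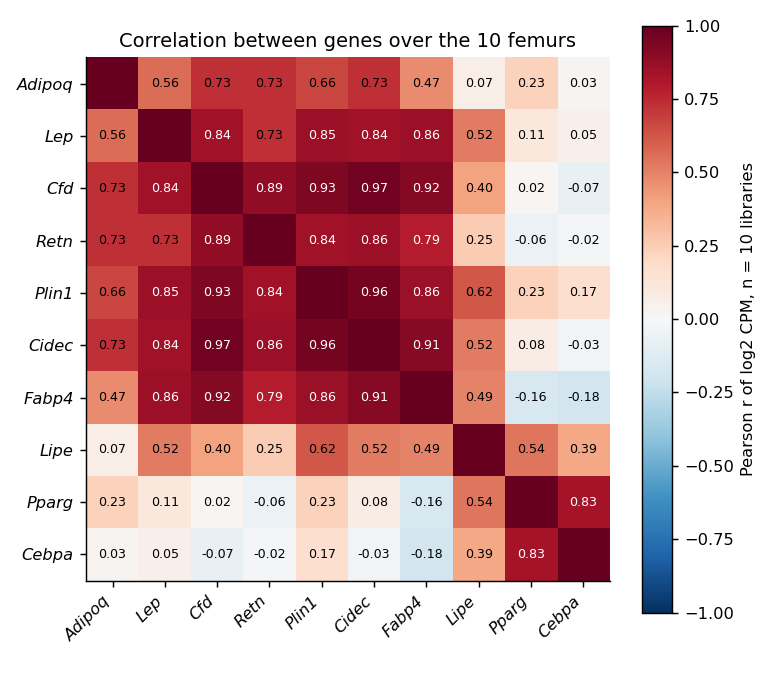
Pearson's r of log2 CPM over the 10 femurs for each pair of genes, from blue (-1) to red (1). Cfd, Retn, Plin1, Cidec and Fabp4 form a block with r from 0.79 to 0.97, and Pparg and Cebpa correlate with each other (0.83) but have r from -0.18 to 0.23 with that block.

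Across all tested genes, the 10 outside the members whose log2 CPM most resembled that of Adipoq over the 10 libraries were Gm20513, Plrg1, Gpm6a, Ccdc142os, Gm24762, Olfr457, Gm38283, Gm525, A830012C17Rik and Rpsa-ps10, with r from 0.951 down to 0.882. Most of them are noncoding or low genes, and Plrg1, a splicing factor, had the highest level of them at 12.9 CPM in young and 11.7 CPM in aged femurs. Among 22087 genes ranked by r with Adipoq, Cfd was at rank 161, Cidec at 166, Retn at 175 and Plin1 at 382. Fabp4 was at rank 2034 and Cebpa at 10278. When 1 library was left out, 2 to 9 of the 10 stayed among the nearest, and the 2 were found without aged mouse 3, the library lowest in Adipoq.

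Other genes of the fat cell programme were counted in lists. Of 19 tested transcription factors and cofactors of fat cell formation, 3 of the 19 rose, 1 fell and 15 did not pass, with a median log2 fold change of 0.23. Gata3 and Gata2, which hold back fat cell formation in preadipocytes, were higher in aged femurs by 1.80 (SE 0.30, adjusted p = 0.00349 by edgeR) and 0.68 (SE 0.15, adjusted p = 0.0139 by edgeR) on the log2 scale. Gata3 was at 0.821 ± 0.326 CPM in young and 2.84 ± 1.146 CPM in aged femurs (SD, n = 5 each) with no overlap, and its call held without each library in turn. The call of Gata2 was lost with total counts as the only scaling. Which cells of the bone made the Gata3 and Gata2 transcripts was not tested. Ebf1, a factor that promotes fat cell formation and is needed for B cells, was lower by -0.57 (SE 0.14, adjusted p = 0.0230 by edgeR). Without young mouse 1 or 2 the Ebf1 call was lost, with adjusted p up to 0.0611 by edgeR. The other called factor was Klf5, at 0.43 (adjusted p = 0.0463 by edgeR). Its call lay close to the threshold and was lost in 9 of the 10 fits without a library, all but the fit without young mouse 4, with adjusted p up to 0.110 by edgeR, and also with total counts or the upper quartile as the scaling and with no filter on low counts.

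Of 15 tested lipid droplet and lipolysis genes 2 rose and none fell (median 0.16). Plin5, the perilipin of muscle and other fat-burning cells, was higher by 0.93 (SE 0.26, adjusted p = 0.0480 by edgeR), and G0s2, an inhibitor of adipose triglyceride lipase, by 0.50 (SE 0.14, adjusted p = 0.0491 by edgeR). Both calls lay close to the threshold and were lost without 8 and 9 of the 10 libraries in turn. With the mean level of the skeletal muscle markers in the fit neither was called (adjusted p = 0.0539 for Plin5 and 0.0626 for G0s2 by edgeR). The log2 fold changes were then 0.62 for Plin5 and 0.505 for G0s2. Both calls were also lost with total counts as the only scaling. Pnpla2, the lipase that acts before Lipe, had a log2 fold change of 0.35 (SE 0.16, adjusted p = 0.190 by edgeR), with 53.7 ± 13.7 CPM in young and 68.3 ± 9.35 CPM in aged femurs (SD, n = 5 each).

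Of 11 tested triglyceride synthesis genes 1 rose (median 0.20). This was Dgat1, which adds the last fatty acid to diglyceride, at 46.9 ± 2.98 CPM in young and 66.3 ± 13.8 CPM in aged femurs (SD, n = 5 each), a log2 fold change of 0.50 (SE 0.13, adjusted p = 0.0327 by edgeR). Its call was lost without 6 of the 10 libraries in turn, namely young mice 1 to 4 and aged mice 3 and 4, and with total counts as the only scaling. Of 10 genes of fatty acid uptake 1 fell and none rose by edgeR (median 0.40, 6 at an unadjusted p under 0.05), and DESeq2 called 2 higher. The skeletal muscle markers had a median of 0.48, and the part of muscle in the values of the uptake genes was not tested. Angptl4, a secreted inhibitor of lipoprotein lipase that fasting and PPARs induce, fell by 0.998 on the log2 scale (SE 0.14, adjusted p = 0.00153 by edgeR). Its level was 10.7, 10.5, 10.8, 12.1 and 10.5 CPM in young mice 1 to 5 and 5.40, 4.24, 5.31, 7.48 and 4.99 CPM in aged mice 1 to 5. The groups did not overlap, and the call held without each library in turn and under every alternative fit. Lpl, the lipoprotein lipase itself, had a log2 fold change of 0.79 (SE 0.29, adjusted p = 0.120 by edgeR). Aqp7, also of this list, had 0.92 (SE 0.33, adjusted p = 0.112 by edgeR). The authors' own DESeq2 comparison, which adds a fold cut-off, lists both Lpl and Aqp7 among the genes higher in aged bone. The calls of Lpl and Aqp7 thus differ between the analyses.

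Of 9 fatty acid synthesis genes 1 fell and none rose (median -0.17). Elovl6, which lengthens fatty acids, was at 7.82 ± 0.952 CPM in young and 5.09 ± 0.784 CPM in aged femurs (SD, n = 5 each), and its log2 fold change was -0.62 (SE 0.14, adjusted p = 0.0182 by edgeR). Without young mouse 1, 2 or 4 it was no longer called. Of 18 other adipocyte-enriched genes that were tested 1 rose (median 0.19). That gene was Sncg, γ-synuclein, which sensory neurons also make, at 1.07 (SE 0.23, adjusted p = 0.0145 by edgeR). Its call held without each library in turn and was lost with total counts as the only scaling.

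No gene was called by edgeR, DESeq2 or limma-voom in a list of 9 genes drawn up for receptors of the secreted members' products (median 0.14). That list also held Insr, the insulin receptor, which is not a receptor of those products. Insr was the 1 gene of the list at an unadjusted p under 0.05 by edgeR (log2 fold change 0.27). Lepr, the leptin receptor of marrow stromal cells, was at 41.4 ± 3.84 CPM in young and 35.4 ± 8.58 CPM in aged femurs (SD, n = 5 each). None of 7 genes of the alternative complement pathway, on which factor D acts, was called by these tools (median 0.17, 0 at an unadjusted p under 0.05 by edgeR). Of 16 tested family relatives of the members 2 rose, namely Plin5 again and Retnla, a relative of resistin, at 1.10 (SE 0.29, adjusted p = 0.0333 by edgeR). Retnla had 8 to 30 counts per library, and its call was lost without 6 of the 10 libraries in turn and with the muscle covariate (adjusted p = 0.0570 by edgeR). None of 7 tested brown fat genes was called by edgeR (median 0.36, 3 at an unadjusted p under 0.05), DESeq2 called 1, and Ucp1, the protein that defines brown fat, had at most 4 counts in any library. The source of the other brown fat transcripts among the cells of the bone, muscle included, was not tested.

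Several members were also read as ratios, since their genes act in succession or share cell types. The log2 ratio of Lep to Adipoq was -4.54 ± 0.958 in young and -3.72 ± 0.259 in aged femurs (SD, n = 5 each). The difference was 0.83 (two-sided exact permutation test, p = 0.103, adjusted p = 0.206 over 4 ratios). The 0.1 CPM added to both sides was close to Lep in the young mice other than mouse 2 (0.0943 to 0.154 CPM), so this ratio leans on that addition. Young mouse 2 stood far from the other young mice in Lep, and without it the difference was 1.24. Since that library stands out in these same values, no p-value is given without it. The ratio of Fabp4 to the endothelial genes Pecam1 and Cdh5 was -1.90 ± 0.288 in young and -1.35 ± 0.298 in aged femurs (SD, n = 5 each), higher by 0.55 (exact permutation test, p = 0.0317, adjusted p = 0.127). Without young mouse 2, which stands out in this ratio too, the difference was 0.67. The genes below the line had log2 fold changes of -0.09 (Pecam1) and -0.30 (Cdh5), neither called by edgeR, so part of the difference came from them. The median of all 12 endothelial markers was -0.01, and ratios to the other markers were not computed. The ratio of Lipe to Pnpla2 differed by 0.14 and that of Pparg to Cebpa by 0.01 (exact permutation tests, adjusted p = 0.698 and 0.889). The smallest p these tests can give is 0.00794.

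Markers of other cells in the same libraries also differed. Their shares are percentages of all raw counts of a library, Gm26917 included, without the TMM scaling used for CPM. Osteoblast markers took 6.74% of counts in young and 2.57% in aged femurs, and 5 of 10 fell (exact permutation test of the share, adjusted p = 0.0278 over 7 lists). The 5 not called were Spp1, Ibsp, Dmp1, Runx2 and Sp7 (log2 fold changes -1.17, -1.34, -0.28, -0.14 and -0.25). Abundant genes led several shares. In young femurs Col1a1 and Col1a2 held 41575 and 21057 of 64697 CPM for osteoblast, and Dcn and Lum 262 and 185 of 641 CPM for fibroblast markers. Ttn held 21767 of 37055 CPM for muscle and Cxcl12 545 of 1022 CPM for stromal markers. Fibroblast markers took 0.0684 and 0.0311% of counts (exact permutation test, adjusted p = 0.0278), and 2 of 10, Lum and Col14a1, fell and 1, Pi16, rose. The call of Col14a1 was lost in 8 of 10 fits without a library and under 5 other alternatives, and that of Pi16 with total counts as the only scaling. Skeletal muscle markers, which share Lipe and Plin5 with fat, took 2.28 to 5.22% in young and 3.09 to 7.28% in aged femurs (exact permutation test, adjusted p = 0.236), and none of 12 was called by edgeR, DESeq2 or limma-voom (2 at an unadjusted p under 0.05 by edgeR).

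Marrow stromal markers, which label the cells from which marrow fat cells form, took 0.109 and 0.0780% of counts (exact permutation test, adjusted p = 0.0741). None of these 10 was called by edgeR (5 at an unadjusted p under 0.05), and DESeq2 called 2 lower. The shares of endothelial markers (0.0804 and 0.0817%), neutrophil markers (0.246 and 0.284%) and macrophage markers (0.0409 and 0.0378%) had exact permutation p-values, adjusted over the lists, of 0.921, 0.898 and 0.898. With TMM scaling, mean sums in young and aged femurs were 759 and 863 CPM for endothelial and 2285 and 2862 CPM for neutrophil markers. For macrophage markers they were 388 and 392 CPM, and none of these sums was tested. Of the single markers in these 3 lists Emcn, an endothelial gene, was lower in aged femurs (-0.60, SE 0.15, adjusted p = 0.0284 by edgeR) and no other was called. The call of Emcn was lost in 5 of 10 fits without a library, namely young mice 2 and 3 and aged mice 2, 3 and 5, with adjusted p up to 0.0658 by edgeR. With the mean level of muscle, endothelial or neutrophil markers in the fit Lipe remained called. Its level went little with these lists (r = 0.23, 0.07 and 0.06), so such fits could change its call little. Osteoblast, stromal and fibroblast markers were not used as covariates. With the muscle covariate Plin5, G0s2, Retnla and Col14a1 were no longer called (adjusted p = 0.0529 to 0.0626 by edgeR). Their log2 fold changes went from 0.93 to 0.62, 0.496 to 0.505, 1.10 to 1.01 and -0.68 to -0.60. Across the 10 libraries, the level of Lipe went with that of the osteoblast markers, in the opposite direction (r = -0.902, rho = -0.952, adjusted permutation p = 0.0280 and 0.00840 over 70 correlations of 10 members with 7 lists). The r was -0.933 without aged mice 3 and 4. After group means were taken off it was -0.737, a value for which no p-value was computed. The permutations ran over all 10 libraries without regard to group. Lipe and the osteoblast share both differed between the groups, so the p-values do not separate that difference from a relation among mice. This correlation was the only one of the 70 to pass, and its part in the difference of Lipe between the groups was not tested.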

How the data were processed

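RNA of flushed, pulverized femurs from 5 young and 5 aged mice was sequenced after ribosomal RNA depletion and poly-A selection. The deposited values are raw counts: the authors trimmed the reads with Cutadapt, mapped them with STAR (GRCm38.p6) and assigned them to genes with featureCounts. The labels name a human build, whereas the gene identifiers are those of mouse. For the annotation release and the strand setting, nothing is given in the sources used here. Each of the 10 columns carries a sample label, and none was left out.

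The counts were tested with edgeR 4.0.16 in R 4.3.3 (filter with a minimum count of 10 and a minimum total of 15, TMM scaling, robust quasi-likelihood fit), with Benjamini-Hochberg adjustment. Log2 CPM used a prior count of 2, ratios added 0.1 CPM to both sides, and correlations used 100000 permutations. The exact test of a single value per library ran over the 252 assignments of the libraries to the groups. Depth ran from 31788232 to 45075335 counts per library, at which tested genes had a median standard error of 0.18 (log2). Alternatives were other scalings and filters, DESeq2 1.42.0, limma-voom (limma 3.58.1), marker covariates, a replicate block and leaving out each library. The steps were tested on simulated data. Figures were made with matplotlib 3.10.9.

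The text names all members, up to 3 called genes of each list with the smallest p, and the 10 genes most like Adipoq. Klf5, Pnpla2, Lpl, Aqp7, Lepr, Insr and Ucp1 were named beyond that rule after their values were seen. So were the markers Col1a1, Spp1, Ibsp, Dmp1, Runx2, Sp7, Dcn, Ttn and Cxcl12. The correlations among members and with cell markers were also chosen after seeing the data. The members and lists were chosen with earlier results of these data known.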

Additional observations from a re-analysis of the deposited data

Results flagged for a closer look

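Lep in young mouse 2 stood far from the other young mice, at 0.982 CPM against 0.0943 to 0.154 CPM. The gap to the nearest other young mouse was 0.933 of the group's whole range, above the critical value of 0.71 for 5 values. The log2 ratio of Fabp4 to the sum of Pecam1 and Cdh5 was -1.39 in the same mouse, against -2.09 to -1.97 in the other young mice, a gap of 0.827 of the range. Of 42 groups of 5 values checked, 2 were singled out in this way, and chance alone does so in about 1 of 20.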

How the results depend on the processing

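Of the 9 tested members, Lipe alone was called in the main comparison, and 0 members were called with total counts as the only scaling or with the replicate block, and 0 to 1 when 1 library was left out. The main comparison called 812 genes higher and 798 lower. Total counts alone gave 285 and 917, so that 23.7% of calls were higher in place of 50.4%. DESeq2 gave 1545 higher and 1283 lower, the endothelial covariate 1576 and 1201, and the neutrophil covariate 1607 and 1271. Leaving out 1 library gave 300 to 856 higher and 386 to 830 lower, with the fewest without young mouse 2. The log2 fold change of Adipoq turned to -0.12 with total counts alone, -0.14 with limma-voom, -0.16 with the replicate block and -0.091 with the neutrophil covariate, and ran from -0.30 to 0.22 when 1 library was left out. That of Cebpa turned to -0.0025 with total counts alone. The log2 fold change of Retn turned to -0.0127 with total counts alone and -0.11 with the muscle covariate, and ran from -0.43 to 0.60 when 1 library was left out. The causes were not tested.

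Left-out libraries gave 0.61 to 1.24 for the log2 ratio of Lep to Adipoq, -0.056 to 0.074 for Pparg to Cebpa and 0.44 to 0.67 for Fabp4 to the endothelial genes. They gave differences in share of counts of -0.0024 to 0.0076 percentage points for endothelial, -0.036 to 0.077 for neutrophil and -0.010 to 0.0013 for macrophage markers.

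Young and aged mice carry the same numbers 1 to 5, but the correlations of same-numbered libraries after group means were -0.0996, 0.0424, 0.180, 0.188 and -0.0897, and 1 of the 5 young libraries correlated best with its own number, so the numbers were not taken to pair the mice. The replicate block gave 957 genes higher and 675 lower, and with it Lipe had an adjusted p of 0.0590 by edgeR and G0s2, Dgat1, Retnla and Klf5 were also no longer called. Lep had 3 to 39 counts, so its level in a library carries a wide counting error.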
